A study of Mus musculus with 32 samples.

Results

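The genes described here are the 150 protein-coding genes that rose most by the late 2-cell stage in mouse embryos cultured with solvent alone, out of 21897 protein-coding genes measured. They were chosen by the level in late 2-cell DMSO-treated embryos of the A-485 experiment divided by the higher of the zygote and early 2-cell DMSO-treated levels, on group means of FPKM with 1 added to each. FPKM is the number of fragments scaled by transcript length and by the depth of the library. Because these 3 groups of DMSO-treated libraries chose the genes, the rise itself is no finding, and every comparison that uses one of them is given as a description. The last genes inside the threshold were Slc30a1, Ctsa and Tmem150c, with ratios of 6.98, 6.96 and 6.96, and the first genes outside it were Gabpa, Polr3e and Golt1b, with ratios of 6.96, 6.95 and 6.94.

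The RNA data are total RNA-seq libraries of wild-type embryos made by in vitro fertilisation from B6D2F1/J mothers and fathers aged 6 to 8 weeks, in 8 groups of 2 libraries. Embryos were collected as zygotes, at early 2-cell or at late 2-cell. They were cultured with 10 µM A-485 or with the solvent DMSO in a window of 4 to 20 h post insemination (hpi). Embryos collected before 20 hpi, such as zygotes, were exposed for less time. A-485 inhibits the acetyltransferase activity of CBP and p300, and embryos were washed when they changed medium, so that late 2-cell embryos had been moved out of the inhibitor. In a separate experiment, late 2-cell embryos were cultured with 50 nM TSA (trichostatin A), an inhibitor of histone deacetylases, or with DMSO between 8 and 28 hpi. No source used here says that the 2 libraries of a group came from separate fertilisations, so p-values measure the spread between libraries, which may be technical. Open chromatin was measured by ATAC-seq at late 1-cell and at early 2-cell, with A-485 or DMSO, as 1 peak list for each condition over both replicates.

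As background, a mouse zygote starts with RNA stored by the oocyte and transcribes little of its own. A minor wave of transcription begins in the zygote, and the major wave of zygotic genome activation takes place in the late 2-cell embryo, when genes for ribosomes, RNA processing and metabolism come on together with families seen mainly at this stage. Histone acetylation, including H3K27ac written by CBP and p300, marks active promoters and enhancers, and deacetylases remove it.

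To show the kind of promoter these genes have, the start-site sequences of 4 members are printed, each from the member of highest ratio, among those in the promoter table, for 1 pattern of ATAC-seq peaks over the printed bases. They run from 250 bases before to 50 bases after the start, come from RefSeq (GRCm38.p6), and are written in the direction of transcription. Capitals mark matches, on either strand, to 7 short motifs, of which none contains another. The first is the TATA box, spelled TATAAA. The CCAAT box is spelled as its name is. The GC box, read by Sp and Klf factors, is spelled GGGCGG. The nuclear receptor site searched was the single-receptor site AAGGTCA. The K50 homeobox site, read by Obox and Otx type factors, was GGATTA. The E-box, read by Myc and Usf type factors, was CACGTG. The Yy1 site, named for the factor that reads it, was AGATGGC. Rpl10l, a ribosomal protein gene, lay under a peak in all 4 lists (chr12:66284352-66284651, minus strand). Btbd18 gained its peak at early 2-cell and had it with A-485 too (chr2:84658829-84659128, plus strand). Tmem191c gained its peak at early 2-cell and had none with A-485 (chr16:17276050-17276349, plus strand). Chtf8, a subunit of a clamp loader for DNA replication, lay under a peak only in A-485-treated early 2-cell embryos (chr8:106893544-106893843, minus strand).
Rpl10l: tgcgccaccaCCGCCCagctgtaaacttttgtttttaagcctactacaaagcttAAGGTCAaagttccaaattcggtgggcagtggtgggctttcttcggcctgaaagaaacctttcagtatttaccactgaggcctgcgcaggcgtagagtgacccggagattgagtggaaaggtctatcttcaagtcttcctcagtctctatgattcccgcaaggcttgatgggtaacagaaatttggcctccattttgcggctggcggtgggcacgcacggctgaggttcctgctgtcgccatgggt
Btbd18: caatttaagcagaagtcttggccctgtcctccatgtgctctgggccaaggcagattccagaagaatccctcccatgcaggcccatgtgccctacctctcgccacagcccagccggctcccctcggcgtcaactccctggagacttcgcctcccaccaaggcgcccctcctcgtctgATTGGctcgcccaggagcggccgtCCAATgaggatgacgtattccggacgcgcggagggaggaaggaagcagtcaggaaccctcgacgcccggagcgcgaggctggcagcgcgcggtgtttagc
Tmem191c: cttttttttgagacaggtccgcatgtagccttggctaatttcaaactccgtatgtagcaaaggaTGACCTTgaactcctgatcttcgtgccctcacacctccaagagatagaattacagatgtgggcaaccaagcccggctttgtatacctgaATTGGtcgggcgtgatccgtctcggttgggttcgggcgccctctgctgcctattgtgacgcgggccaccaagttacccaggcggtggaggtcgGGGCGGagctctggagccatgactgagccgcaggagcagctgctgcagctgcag
Chtf8: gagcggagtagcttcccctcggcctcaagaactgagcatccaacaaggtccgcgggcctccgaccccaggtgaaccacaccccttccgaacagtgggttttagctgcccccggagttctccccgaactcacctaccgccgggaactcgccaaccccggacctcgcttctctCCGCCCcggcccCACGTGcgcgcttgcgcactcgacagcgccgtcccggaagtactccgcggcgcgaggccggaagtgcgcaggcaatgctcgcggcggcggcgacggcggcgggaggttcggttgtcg

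The promoter table held 133 promoters of 110 of the 150 genes. A GC box was found in 58.6% of them, against 66.1% of 5387 promoters of other protein-coding genes with at least 10 FPKM in late 2-cell DMSO-treated embryos and 47.8% of all protein-coding promoters. A TATA box was found in 3.76% of the members' promoters, 6.40% of those of the other genes at 10 FPKM or more and 12.2% of all. The K50 homeobox site was found in 12%, 6.07% and 6.44%, and the E-box in 15.8%, 10.4% and 8.03%. The CCAAT box was found in 27.1% of the members' promoters, 40.0% of the other genes' and 37.8% of all. The nuclear receptor site (3.01%, 3.06% and 3.97%) and the Yy1 site (7.52%, 7.67% and 6.05%) were found in similar shares. The shares count promoters, not genes, so overlapping promoters of the same gene can count a site more than once. The K50 homeobox sites of Glrx2 and Rab43 were counted in this way. These shares describe letters in a 300-base window and were not tested. The members were short genes, with a median span of 12730 bp, against 26790 bp for 5283 other protein-coding genes at 10 FPKM or more and 17470 bp for all protein-coding genes. They were spread over the genome, with 18 on chromosome 7 and 15 on chromosome 5, and only 3 pairs lay within 50 kb of each other: Rps15 with Apc2, Hist1h2bq with Hist1h2br and Zgpat with Lime1, of which the last overlap.

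In DMSO-treated embryos, the median FPKM of the 150 genes was 0.48 and 0.54 in the zygote libraries. The early 2-cell libraries gave 3.43 and 2.88, and those of late 2-cell embryos 34.03 and 39.65. The DMSO-treated late 2-cell libraries of the TSA experiment, which had no part in the choice, gave medians of 35.5 and 36.7. In that experiment the mean of 148 of the 150 genes lay within 0.5 to 2 times the mean in the A-485 experiment's DMSO-treated libraries. The exceptions were mt-Co2 and Gm13695. As a share of all counts, the members took 1.54% and 1.59% in the late 2-cell DMSO-treated libraries of the A-485 experiment and 1.68% and 1.67% in those of the TSA experiment. The share was 0.149% and 0.134% with A-485 and 0.305% and 0.292% with TSA. Both treated groups thus lay below every late 2-cell DMSO-treated library, and the A-485-treated group lay lowest.

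**Figure D1:**
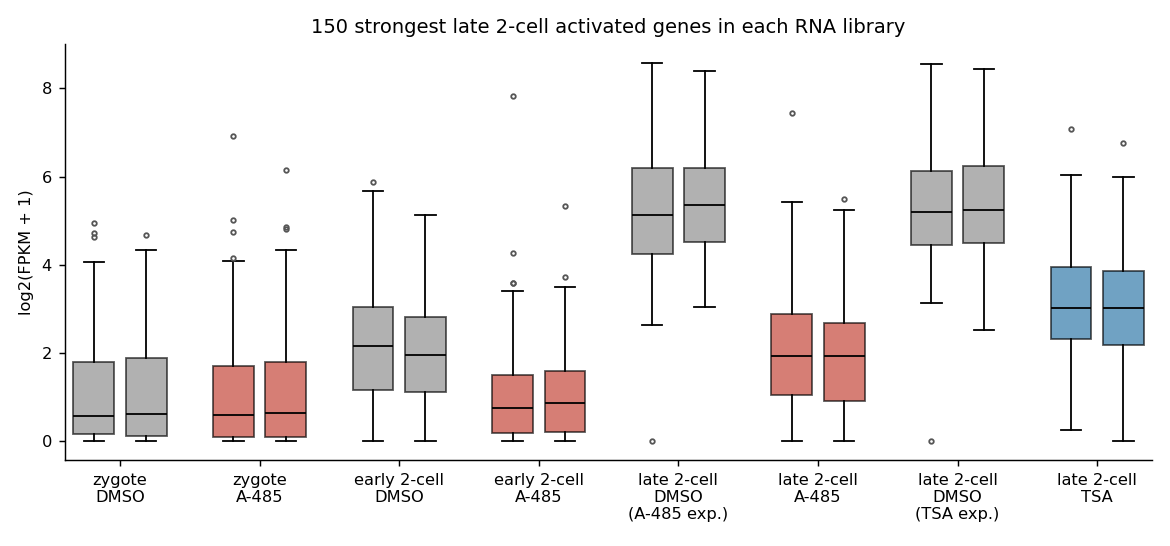
Box plots of log2(FPKM + 1) of the 150 members in each of the 16 libraries (line, median; box, quartiles; whiskers, 1.5 times the box height; circles, genes beyond). Medians are high only in the 4 late 2-cell DMSO-treated libraries, at 34.03 to 39.65 FPKM, and lie at about 7.1 FPKM with TSA and 2.8 FPKM with A-485.

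Of the whole series, libraries held between 13206163 and 32585987 expected counts, the estimated read counts that RSEM gives each gene. Mitochondrially encoded genes took 19.5% and 20.7% of counts in the A-485-treated late 2-cell libraries and 15.5% and 16.3% in the TSA-treated ones, against 10.5% to 12.5% in the 4 DMSO-treated late 2-cell libraries. The summed FPKM of 10 oocyte and zygote markers was 1448 to 1479 with A-485 and 798 to 861 in its DMSO-treated controls, and 777 to 820 with TSA against 607 to 636. All 10 were above 1 FPKM in each late 2-cell group. Most of the sum was from Oosp1, at 780.2 and 794.1 FPKM with A-485, and Bmp15, at 407.5 and 415.2. Zp3 was lower than in the controls with both treatments, and Zar1 and H1foo overlapped their controls with A-485. By the limits given below, 1 of the 10 was called higher and none lower with A-485, and 1 lower and none higher with TSA. Summed markers of cumulus cells (8 genes) and sperm (7 genes) reached at most 2.86 and 6.24 FPKM in any late 2-cell library. Fibroblast markers (7 genes) summed to 14.3 to 16.7 FPKM with A-485, with Dcn and Lum at 0 in each library, and to 0.13 to 0.64 in its controls, and most of it was from Pdgfra, at 13.9 and 15.9 FPKM. They summed to 9.70 to 10.8 with TSA and 1.09 to 1.98 in its controls. Erythroid markers (7 genes) summed to 45.3 to 47.0 FPKM with TSA and to at most 4.76 in the other late 2-cell libraries, with Hbb-bs and Hbb-bt at 0. Most of it was from Hba-a2, at 35.4 and 39.8 FPKM. What part these markers, or the larger oocyte and zygote sum, had in the lower level of the members was not tested. In bulk libraries, fewer active cells and less RNA in each cell cannot be told apart, and with no added reference RNA a change is relative to the rest of the library.

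The comparison of TSA-treated with DMSO-treated late 2-cell embryos asked how these genes behaved when deacetylases were blocked, in libraries that took no part in choosing them. Of the 150 genes, 144 fell and none rose. A gene was called lower or higher at a Benjamini-Hochberg adjusted p under 0.05 from the quasi-likelihood test of edgeR, over all genes tested, with at least a 2-fold change. Of 23429 genes tested, 14.5% were called lower and 18.4% higher, and of the 5283 other protein-coding genes at 10 FPKM or more, 36.2% were lower. The 6 members not called were mt-Co2, 1700013H16Rik, Flvcr1, Gm13695, C130074G19Rik and Chtf8. No member was called higher by edgeR or by DESeq2, and 1 had a higher level at an unadjusted p under 0.05. The median log2 fold change of the members was -2.86, against 0.13 over all genes tested. Scaled to total counts, the members' median was -2.50 and that of all genes 0.48. The members kept a median of 18.9% of their DMSO level, 29 of them under 10% and 51 over 25%, and in 147 both TSA-treated libraries lay below both DMSO-treated ones.

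The members that fell most with TSA were Apom, Rps27, Stmn3, Kcnk6 and Pramel7. Apom, an apolipoprotein gene, read 8.1 and 11.33 FPKM with DMSO and 0.19 and 0.18 with TSA, which was 3 counts in each TSA-treated library. Rps27, a protein of the small ribosomal subunit, read 132.65 and 134.5 FPKM with DMSO and 2.81 and 2.8 with TSA, a log2 fold change of -5.94 ± 0.25 (SE; edgeR adjusted p = 2.3e-08). The libraries of each group lay close together and far from the other group. Stmn3, a stathmin that binds tubulin, went from 32.43 and 28.98 FPKM to 0.55 and 0.98, a log2 fold change of -5.66 ± 0.27. Kcnk6, a potassium channel, went from 20.65 and 21.87 to 0.56 and 0.59, a log2 fold change of -5.57 ± 0.15. Pramel7, of the PRAME-like family found in early embryos and naive stem cells, went from 134.63 and 154.11 to 7.5 and 5.36, a log2 fold change of -4.82 ± 0.17.

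At the other end were genes with the highest fitted changes. mt-Co2 read 38.04 and 63.18 FPKM with DMSO and 133.63 and 106.72 with TSA, a log2 fold change of 0.89 ± 0.21 (edgeR adjusted p = 0.0057), short of the 2-fold limit. Scaled to total counts it was 1.25, past that limit. 1700013H16Rik read 29.37 and 58.04 FPKM with DMSO and 60.55 and 62.09 with TSA, a log2 fold change of 0.13 ± 0.24 (edgeR adjusted p = 0.70) whose direction turned to -0.28 without the first DMSO-treated library. Flvcr1, an exporter of haem, read 20.58 and 23.41 FPKM with DMSO and 19.27 and 20.06 with TSA, so the groups stood close to each other without overlapping. Its log2 fold change was -0.76 ± 0.12 (edgeR adjusted p = 0.00035) on counts, again short of 2-fold, while 89.4% of its FPKM was left. C130074G19Rik read 18.53 and 20.11 with DMSO and 12.04 and 13.82 with TSA, a log2 fold change of -0.93 ± 0.12. Gm13695 had counts in only 1 library of each of the late 2-cell DMSO-treated and TSA-treated groups, and its direction turned without the second DMSO-treated library or the second TSA-treated library.

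For 5 members, RSEM's posterior standard deviation was over 5% of the count in late 2-cell DMSO-treated embryos, a measure of how uncertainly reads were assigned to genes: mt-Co2, Chtf8, Hist1h2bq, Hist1h2br and Gm13695. mt-Co2, the mitochondrially encoded subunit of cytochrome oxidase, was the least regular. It read 21.68 and 22.4 FPKM in early 2-cell DMSO-treated libraries, 269.96 and 336.24 at late 2-cell in the A-485 experiment, and 38.04 and 63.18 in DMSO-treated libraries of the TSA experiment. The A-485-treated late 2-cell libraries read 173.11 and 31.55. Its place among the 150 thus rests on 1 group of libraries. Without these 5 genes, 142 of 145 members were lower with TSA.

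The comparison of A-485-treated with DMSO-treated late 2-cell embryos asked what these genes did after CBP and p300 activity had been blocked from zygote to early 2-cell. Against their own DMSO-treated controls, 148 of 150 were lower and none higher, beside 17.0% of 22822 genes tested that were lower and 13.8% that were higher. These controls helped choose the genes, so nothing is read from the count. Against the DMSO-treated libraries of the TSA experiment, which did not, 147 of 150 were lower and none higher, beside 20.3% lower and 15.5% higher of 23563 genes tested. No member was higher by DESeq2 in either comparison, and none was higher at an unadjusted p under 0.05. Here treatment and experiment cannot be told apart. Of the 5283 other protein-coding genes at 10 FPKM or more, 44.4% were lower against the A-485 experiment's controls and 45.8% against the TSA experiment's. The members kept a median of 7.43% of the level in their own controls and 6.99% of that in the TSA experiment's DMSO-treated libraries, and 99 and 95 genes, in turn, were left at under 10%. The median log2 fold change was -4.19 with their own controls, where the median of all genes was 0.28, and -4.32 with the others. With genes at 3 counts or fewer in each treated library set to their bound, the medians were -4.17 and -4.30.

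Tor1b, which encodes a torsin ATPase of the endoplasmic reticulum and nuclear envelope, had the largest ratio, 31.4 (chr2:30952959-30959015, plus strand, by GENCODE M21). With DMSO it went from 0.09 and 0.32 FPKM in early 2-cell libraries to 33.97 and 39.81 in late ones, where A-485 left 2.79 and 1.32. In the TSA experiment it read 46.29 and 39.49 with DMSO and 3.03 and 4.69 with TSA, a log2 fold change of -3.80 ± 0.19 (edgeR adjusted p = 8.5e-08). Both treatments left it at a few FPKM and its early 2-cell level was lower still. Rpl10l, a testis-expressed copy of a ribosomal protein gene, followed at 155.81 and 113.17 FPKM with DMSO, 8 and 4.96 with A-485 and 12.47 and 10.34 with TSA. Selenos, a selenoprotein of protein quality control in the endoplasmic reticulum, read 201.66 and 144.7 with DMSO, 3.79 and 4.44 with A-485 and 54.57 and 37.63 with TSA. Its levels with TSA lay well above those with A-485, although the treatments come from separate experiments. Btbd18, known for its role in transcription of piRNA precursors in the testis, read 194.11 and 219.99 with DMSO, 16.42 and 9.17 with A-485 and 15.31 and 15.12 with TSA. For this gene the levels under both treatments overlapped.

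Among the other top-ranked genes, Fgf4, the growth factor that the inner cell mass later secretes, kept more. It read 18.41 and 14.95 FPKM in its DMSO-treated libraries, 3.5 and 4.13 with A-485 and 2.85 and 3.53 with TSA. Alppl2, a germ-cell alkaline phosphatase, stood at 124.33 and 150.6 FPKM with DMSO and at 0.62 and 0.46 with A-485, while TSA left 21.72 and 22.59. Gm3139, a numbered gene model, read 48.84 and 70.06 FPKM with DMSO and had no count in either A-485-treated library, which is at least 431-fold lower with the limit of 3 counts in each library. TSA left it at 7.65 and 2.74 FPKM. Apol7e, of the apolipoprotein L family, likewise had no count with A-485, at least 82.6-fold lower, from 10.58 and 7.17 FPKM. Stmn3 and the sarcosine dehydrogenase gene Sardh had 1 count in each A-485-treated library, at 0.08 and 0.07 and at 0.03 and 0.02 FPKM, from 27.92 and 32.3 and from 25.27 and 26.07 with DMSO. Pheta1, Gpn3, Ptdss2, Tbl3, Npl and Adsl were called lower in each of the late 2-cell comparisons, with log2 fold changes of -5.95 (Pheta1) to -4.07 (Adsl) with A-485 and -3.93 (Npl) to -2.66 (Pheta1) with TSA. Among them, Gpn3 helps assemble RNA polymerase II, Ptdss2 makes phosphatidylserine, Tbl3 is part of the early small-subunit ribosome precursor, Npl breaks down sialic acid and Adsl acts in purine synthesis.

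**Figure D2:**
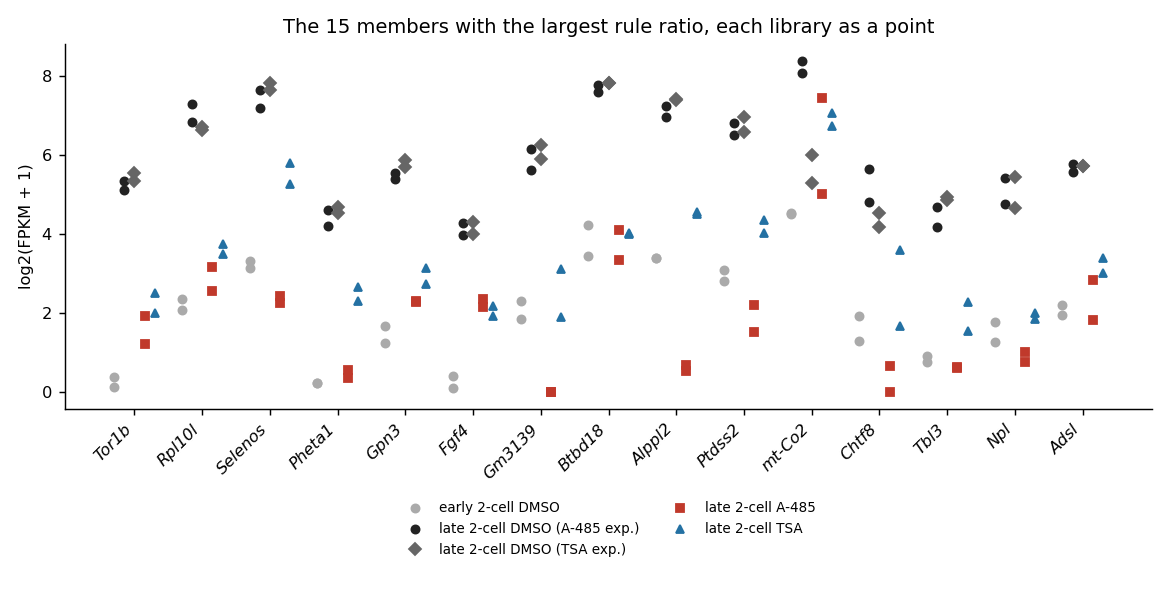
log2(FPKM + 1) of the 15 members with the largest ratio, with 1 point for each library of the early 2-cell DMSO-treated group and the 4 late 2-cell groups. The late 2-cell DMSO-treated points of both experiments lie together and above both treatments except in mt-Co2, and Gm3139 lies at 0 in both A-485-treated libraries.

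The members least lowered by A-485 were Ints2, Glrx2, Ttc14, Hist1h2bq and 2210011C24Rik. Ints2, a subunit of the Integrator complex that cuts nascent RNA, read 34.89 and 33.41 FPKM with DMSO and 21.6 and 13.25 with A-485, which is -0.66 ± 0.18 in log2 fold change. TSA took it from 22.18 and 28.63 to 3.97 and 10.36, a log2 fold change of -2.38 ± 0.13 (edgeR adjusted p = 1.8e-07). Glrx2, a glutaredoxin, read 28.07 and 37.79 with DMSO, 9.68 and 8.03 with A-485, and 8.81 and 6.86 with TSA. Neither Ints2 nor Glrx2 passed the 2-fold limit with A-485 in the fit on counts. For Glrx2 the scales disagreed, as 26.9% of its FPKM was left with A-485 while the fitted log2 fold change on counts was -0.99, and the cause was not tested. Ttc14 read 60.11 and 64.69 FPKM with DMSO and 41.57 and 22.44 with A-485, against 48.56 and 50.94 with DMSO and 14.12 and 11.8 with TSA. Hist1h2bq, a histone H2B gene, is among the 5 of uncertain count, and 2210011C24Rik changed by -1.52 ± 0.52.

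The difference between the A-485 and the TSA fold change was put to edgeR as an interaction term, with the 8 late 2-cell libraries and each treatment's own controls in 1 model. In 82 of 150 members A-485 gave the more negative change and in 6 TSA did, beside 11.0% and 2.98% of 26554 genes tested. The 6, a share near that of all genes, were Ints2, Ipo7, Pramel7, Trim43c, Glrx2 and Ttc14. This comparison rests in part on libraries that chose the genes, and the TSA experiment's controls read a median of 1.03 times the A-485 experiment's for the members. The median of the interaction was -1.24, against -0.01 over all genes tested, and the doses, treatment windows and experiments differed, so the sizes stand side by side only. Ipo7, a nuclear import receptor, read 96.21 and 93.96 FPKM with DMSO and 7.74 and 5.97 with TSA, but 81.21 and 69.78 with DMSO and 14.03 and 15.51 with A-485. The difference of its log2 fold changes, A-485 minus TSA, was 1.55 ± 0.19 (edgeR adjusted p = 1.3e-05). Trim43c, of a Trim family seen in the 2-cell embryo, read 5.31 and 6.22 with A-485 and 2.86 and 3.48 with TSA, from DMSO levels between 44.16 and 68.46. Scaled to mitochondrially encoded genes, which took more of the counts in treated libraries, 3 members rather than 6 had the more negative change with TSA.

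**Figure D3:**
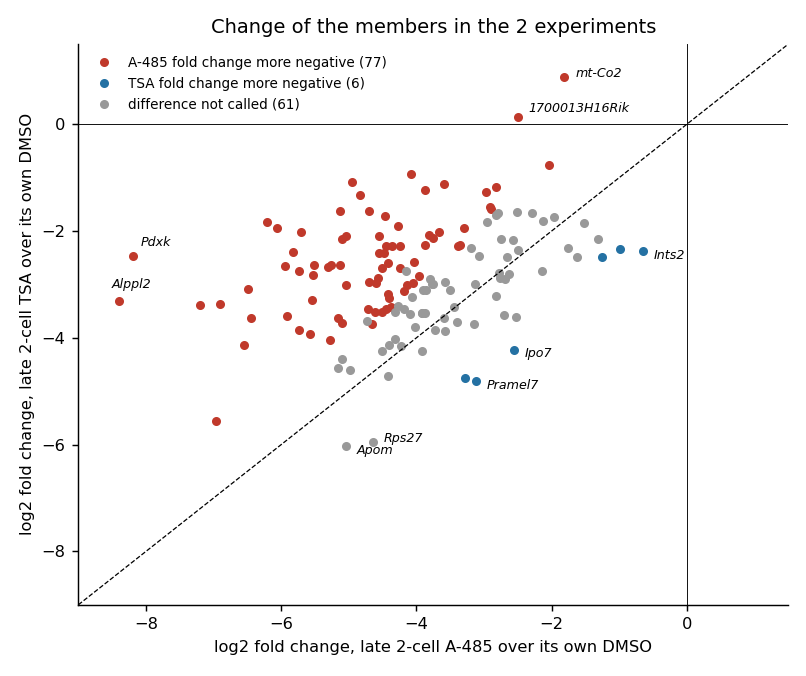
Fitted log2 fold change of the members with TSA (vertical) against that with A-485 (horizontal), each over the DMSO-treated late 2-cell libraries of its own experiment. The dashed line marks equal changes, 6 genes with at most 3 counts in each A-485-treated library are left out, and 77 of the plotted genes were called above the line and 6 below it.

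The change with TSA was larger for the genes with the larger activation ratio. The rule used neither group of that experiment, but the ratio limits how far a gene can fall when only its rise is lost. The median log2 fold change was -3.23 over ranks 1 to 50, -2.89 over ranks 51 to 100 and -2.67 over ranks 101 to 150. Beyond the members it was -2.24 over ranks 151 to 300, -1.74 over ranks 301 to 600 and -1.06 over ranks 1201 to 2400. The share called lower was 96%, 94% and 98% over the 3 parts of the members, with no order among them, and 88.7% in ranks 151 to 300 and 49.8% in ranks 1201 to 2400. With A-485 against the TSA experiment's controls, the medians were -4.49, -4.58 and -3.95 over the 3 parts of the members and -1.84 over ranks 1201 to 2400. The members thus sit at one end of an order that went on beyond rank 150. The lowest activation ratio was 8.997 in ranks 1 to 50 and 1.711 in ranks 1201 to 2400. A gene with a small ratio already had much of its late level before the rise, so its possible fall was smaller. How much of the order came from this limit was not tested. Both comparisons share their controls.

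**Figure D4:**
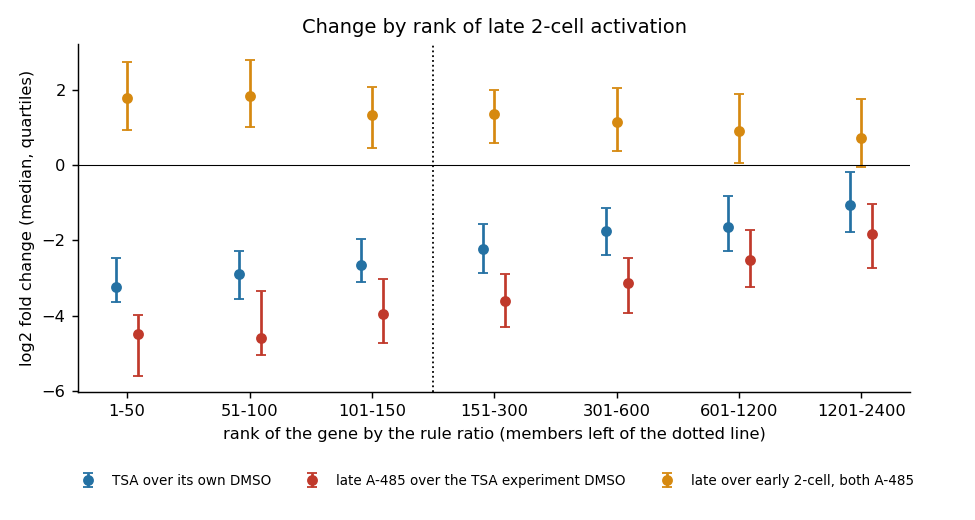
Median and quartiles of the log2 fold change by rank of the activation ratio, for TSA, for late 2-cell A-485 over the TSA experiment's DMSO, and for late over early 2-cell with A-485 in both. The dotted line ends the 150 members, and both treatments' medians move towards 0 from ranks 1 to 50 to ranks 1201 to 2400.

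Between early and late 2-cell under A-485, neither group of which chose the genes, 66 of 146 members tested rose and none fell, beside 15.1% higher and 7.29% lower of 22854 genes tested. The question was whether the genes still rose from a lower start. The median log2 fold change was 1.69, or 1.63 with the genes at 3 counts or fewer in one group set to their bound, while that of all genes was 0.31. DESeq2 called 59 higher and none lower, and 1 member was lower at an unadjusted p under 0.05. Scaled to mitochondrially encoded genes, 43 rose and 3 fell. The 4 members not tested, Stmn3, Apol7e, Sardh and Gm13695, had at most 3 counts in each library of both groups. By level, the mean at late 2-cell with A-485 was above the early 2-cell DMSO mean in 68 of 150 genes, and with TSA in 135. That early DMSO-treated group helped choose the genes for being low, and other genes were not counted, so nothing is read from these counts.

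Folr1, the folate receptor, had no count at early 2-cell with A-485 and 6.37 and 1.57 FPKM at late 2-cell, at least 19.1-fold higher (edgeR adjusted p = 0.00057), a call that was lost without the first A-485-treated late 2-cell library. With DMSO it went from 7.21 and 7.91 FPKM to 79.23 and 76.4. Fgf4 went from 0.05 and 0 FPKM to 3.5 and 4.13 with A-485. Chtf8, Gata1 and Amhr2 had the other highest fitted values, and each had no count at early 2-cell with A-485, and none of the 3 passed the test. Gata1, a transcription factor known from blood cells, reached only 0.09 and 0.63 FPKM at late 2-cell with A-485, against 23.53 and 20.3 with DMSO (edgeR adjusted p = 0.090 for the rise). Ints2, Glrx2 and Ttc14, the genes least lowered, rose by log2 values of 2.17 ± 0.22, 4.22 ± 0.46 and 2.54 ± 0.19, all called. Slc19a3, a thiamine transporter, rose from 0.6 and 0.77 FPKM to 15.48 and 12.76. At the low end, Ube2o, a ubiquitin-conjugating enzyme, read 3.02 and 4.84 FPKM at early and 2.24 and 5.59 at late 2-cell, a log2 fold change of -0.76 ± 0.26. Usp22, the deubiquitinase of the SAGA complex, read 4.08 and 2.55 FPKM and then 7.83 and 3.69. Its fitted change, on counts, was negative and among the 5 lowest. Counts unscaled for depth went from 179 and 203 to 117 and 72. FPKM and fit thus disagreed for Usp22, and the cause was not tested. Ifi35, an interferon-induced gene, was near 0 at both stages, as was Gm3139. In the DMSO-treated late 2-cell libraries of the A-485 experiment, these 4 genes read between 13.95 and 121.63 FPKM.

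During the A-485 treatment itself, almost no change was called among the members in zygotes. The zygote DMSO-treated group was among those that chose the genes for being low, at medians of 0.48 and 0.54 FPKM. A fall had little room to be called, so nothing is read from its absence. Of 125 tested, none was lower and only mt-Co2 was higher, beside 0.0822% lower and 0.00548% higher of 18258 genes tested. DESeq2 called none in either direction, and 5 members were lower and 2 higher at an unadjusted p under 0.05. The median log2 fold change was -0.03. The other 25 members had under 10 counts over the 4 zygote libraries. At early 2-cell, where the DMSO-treated group was among those that chose the genes for being low, 90 of 148 tested were lower and 1, mt-Co2, higher, beside 8.43% and 0.771% of 20872 genes tested. DESeq2 called 82 lower and none higher. The median FPKM was 0.67 and 0.82 with A-485 against 3.43 and 2.88 with DMSO, and 77 members were under 1 FPKM in both A-485-treated libraries. Of the 90, 52 were among the genes that later rose under A-485, as were 14 of the other members. Both calls used the same early 2-cell A-485-treated libraries, where a low value favours both, so nothing is read from the overlap. Btbd18 read 17.84 and 9.87 FPKM with DMSO and 1.31 and 1.36 with A-485 at early 2-cell, and Slc19a3 read 18.92 and 17.87 against 0.6 and 0.77. Tor1b and Rpl10l, the genes of highest ratio, did not differ beyond their spread, with log2 fold changes of 0.43 (edgeR adjusted p = 0.86) and -0.15 (edgeR adjusted p = 0.89).

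By role, the members included 8 of 126 genes listed for ribosome biogenesis: Tbl3, Exosc6, Ddx54, Mybbp1a, Fbl, Nop53, Nob1 and Bop1. All 8 were lower with TSA, with log2 fold changes between -3.86 (Fbl) and -1.63 (Bop1), and of the 126 genes 110 were lower and 1 higher. Fbl, the methyltransferase of ribosomal RNA, read 87.05 and 84.86 FPKM with DMSO and 7.91 and 7.51 with TSA. Bop1, a factor of the large subunit, read 23.9 and 20.68 and then 10.8 and 10.57, the mildest fall of the 8. With A-485 the order was another, as Bop1 read 22.98 and 23.05 FPKM with DMSO and 1.42 and 2.16 with A-485. Mybbp1a, which acts in ribosomal RNA processing, read 118.32 and 122.86 FPKM with DMSO and 5.29 and 2.75 with A-485. It was the only 1 of the 8 that rose from early to late 2-cell under A-485, beside 25 of the 126 listed genes. Of the 126 listed genes, 111 were lower and 2 higher with A-485 against its own controls.

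The ribosomal protein genes Rpl10l, Rps27, Rps15, Rpl9 and Rpl38 were members, and each was lower in both treatments. TSA changes ran from -5.94 (Rps27) to -1.28 (Rpl38), and of 102 ribosomal protein genes tested 83 were lower and 3 higher.

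The members on the list of transcription and chromatin regulators were Gata1, Klf9, Ruvbl1, Kmt5b, Prmt1 and Nr2c2. The lists were made by symbol and do not hold every member of a role, as Usp22 of the SAGA complex was on none. All 6 were lower with TSA and with A-485, whereas of 353 listed genes tested with TSA 71 were lower and 88 higher. Kmt5b, a histone H4 methyltransferase, read 55.88 and 52.07 FPKM with DMSO and 5.64 and 7.15 with TSA. Ruvbl1, an ATPase of several chromatin remodellers, read 67.76 and 65.47 and then 18.37 and 16.05, and Nr2c2, an orphan nuclear receptor, 52.94 and 49.84 and then 24.72 and 19.92. Under A-485 at early 2-cell, 4 of the 6 were lower, beside 46 of 337 listed genes tested. The DMSO-treated group of that stage helped choose the members. Only Klf9 and Nr2c2 of the 6 rose from there to late 2-cell, beside 75 of 346 listed genes tested. Klf9, a Krüppel-like factor, went from 0.34 and 0.14 FPKM to 1.63 and 1.69, still far under 20.69 and 21.81 with DMSO.

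Of 1545 genes listed by symbol under many-copy 2-cell families, 8 were members: Obox8, Pramel7, Gm3139, Gm3286, Gm6871, Gm38100, Gm13128 and Gm13695. This list held every member with a numbered Gm symbol, so it may take in genes outside such families. Only 601 of the 1545 had enough counts to be tested with TSA. With TSA, 7 of the 8 were lower, while of 601 listed genes tested 69 were lower and 146 higher. Obox8, of an oocyte-specific homeobox family, read 93.71 and 80.52 FPKM with DMSO and 10.48 and 7.93 with TSA. Pramel7 is given above. With A-485 at early 2-cell, 5 of the 8 were lower, beside 178 of 536 listed genes tested. The DMSO-treated group of that stage helped choose the members. Obox8 read 0 and 0.04 FPKM there with A-485 against 6.23 and 7.37 with DMSO. From early to late 2-cell under A-485, 4 of the 8 rose, beside 162 of 583 listed genes tested.

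The 7 members listed for metabolism and transport, Adsl, Slc5a6, Pdxk, Slc19a3, Slc39a4, Impdh1 and Slc30a1, were lower in both treatments. Their TSA changes ran from -3.63 (Slc39a4) to -1.95 (Slc30a1). They handle purines (Adsl, Impdh1), vitamins (Slc5a6, Pdxk, Slc19a3) and zinc (Slc39a4, Slc30a1). The enzyme genes Npl, Ptdss2 and Sardh, named above, were not on this list. Of 402 listed genes tested with TSA, 58 were lower and 108 higher. Pdxk, a kinase that activates a vitamin, had a log2 fold change of -8.19 with A-485 and -2.48 with TSA. Nuclear transport gave Tnpo3, Ipo7 and Rangap1, all 3 lower in both treatments and all 3 risen under A-485 from early to late 2-cell. Of its 60 listed genes, 33 were lower with TSA, 30 were lower with A-485 and 7 rose under A-485. The transcription machinery gave Elob, Gtf3c6 and Gtf3c5, with TSA changes from -4.15 to -1.67, where 74 of 127 listed genes were lower. Zinc-finger proteins gave Zfp1, Zfp292 and Zfp707, all lower with TSA, while of 472 listed genes tested 88 were lower and 113 higher. Translation factors gave Eif3a, at 245.27 and 261 FPKM with DMSO and 47.97 and 49.71 with TSA. Chaperones gave Fkbp4, mitochondrial proteins Tomm20, and replication and cell cycle Cdk2ap1, and each was lower in both treatments. With TSA, 58 of 96 listed translation factors, 31 of 112 chaperones, 89 of 252 mitochondrial proteins and 49 of 160 genes of replication and cell cycle were lower. The listed genes of pre-mRNA splicing, the proteasome, and cytoskeleton and adhesion held no member.

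In ATAC-seq, 103 of the 150 genes (68.7%) had a peak within 1 kb of a start site in DMSO-treated early 2-cell embryos, and 79 (52.7%) did with A-485. Among the 5283 other protein-coding genes at 10 FPKM or more in late 2-cell embryos, the shares were 68.8% and 73.7%, and among all protein-coding genes 31.8% and 41.0%. So the members' share was lower in the list with A-485 than in the DMSO list, while that of both other sets was higher. This order depended on which peaks were counted. Among only the peaks above each list's own median strength, 22 members had a promoter peak with DMSO and 37 with A-485. Those medians differed, at a fold enrichment of 8.12 with DMSO and 7.62 with A-485, so the 2 counts stand at unlike cutoffs. Of the other genes at 10 FPKM or more, 1923 and 2498 then had one, and of all protein-coding genes 3674 and 5330. At late 1-cell, 45 members (30.0%) had a promoter peak with DMSO and 42 (28.0%) with A-485, against 49.9% and 51.3% of the other genes at 10 FPKM or more. Peak lists were called once over both replicates, so these shares have no replicate error and were not tested. The lists held 10214 and 7094 peaks at late 1-cell and 27693 and 13712 at early 2-cell, with DMSO and A-485 in turn.

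Distal peaks, over 2.5 kb from any start site and within 50 kb of the gene's own, were near 135 members (90.0%) in the early 2-cell DMSO list and near 36 (24.0%) with A-485. Of the other genes at 10 FPKM or more the shares were 78.3% and 22.9%, and of all protein-coding genes 56.0% and 19.7%. At late 1-cell, the members' shares were 24.0% with DMSO and 11.3% with A-485. The other genes at 10 FPKM or more had 21.05% and 9.82%, and all protein-coding genes 18.5% and 9.55%. The members' share with a distal peak in the A-485 list at early 2-cell was thus the same as at late 1-cell with DMSO. In both other sets of genes these shares were also close, so this is no trait of the members.

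**Figure D5:**
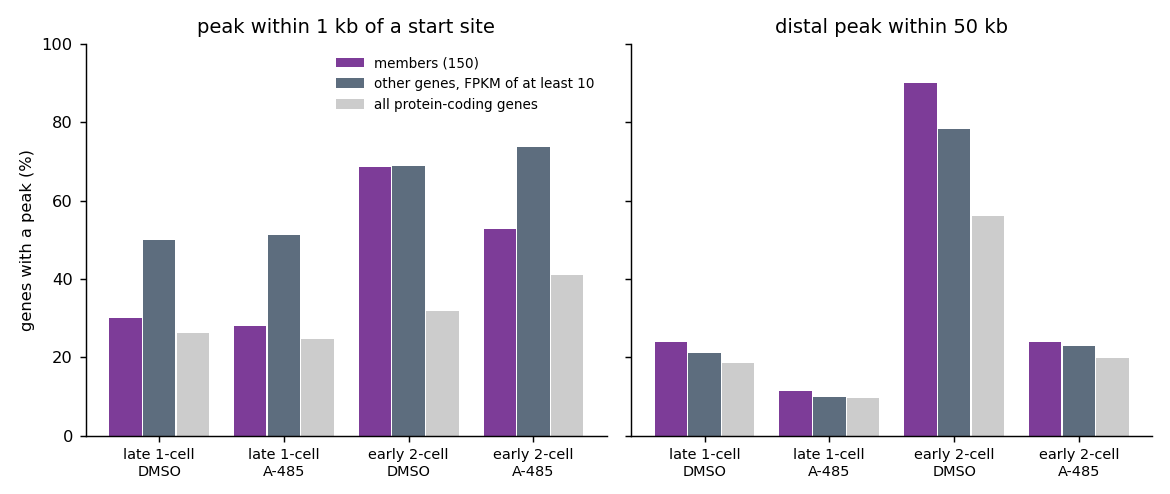
Share of genes (%) with an ATAC-seq peak within 1 kb of a start site (left) and with a distal peak within 50 kb (right) in each of the 4 peak lists, for the members, other protein-coding genes with at least 10 FPKM in late 2-cell DMSO-treated embryos, and all protein-coding genes. The members' promoter share is 68.7% with DMSO and 52.7% with A-485 at early 2-cell, and their distal share 90.0% and 24.0%.

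Comparing the early 2-cell lists, 67 members had a promoter peak in both, 36 only with DMSO, 12 only with A-485 and 35 in neither. Of the 36, 34 had no promoter peak at late 1-cell with DMSO, and of the 67, 31 had none. With TSA, the medians of the log2 fold change in these classes were -2.87, -2.85, -2.38 and -2.90. Late 2-cell A-485 against the TSA experiment's controls gave -4.22, -4.86, -3.79 and -4.56. At early 2-cell the medians under A-485 were -1.75, -2.44, -1.69 and -2.555 in the same order, the last over 33 genes tested. Members with no peak in either list thus fell at least as far as those with it only with DMSO. Among all protein-coding genes with a peak only with DMSO the median was -0.13. Fgf4, Gata1 and Ctsa, a lysosomal protease, were among the genes with a promoter peak only with DMSO.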

How the data were processed

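Total RNA libraries were trimmed by the authors with Trimmomatic 0.39, aligned with STAR 2.7.8a and counted with RSEM 1.3.1 on GRCm38, and the deposited gene tables hold expected counts, FPKM and TPM (TPM was not used). The 150 genes were ranked on deposited FPKM. Expected counts were rounded and tested with the quasi-likelihood test of edgeR 4.0.16 (R 4.3.3, TMM scaling) keeping genes whose libraries in a comparison summed to 10 counts or more. DESeq2 1.42.0 was an alternative, and the edgeR fit was tested on simulated data. A group whose libraries all held at most 3 counts gave a bound, with 3 counts in each library. The ATAC-seq peak lists were called by the authors over both replicates, with fold enrichment (a ratio), −log10 p-values and a score deposited for each peak. Their build is not given in the sources used here, and peak positions were checked against GRCm38.

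Named genes were the 15 of largest ratio, the 5 lowest and 5 highest fitted changes in each of 3 comparisons, and members of role lists. Tmem191c, Trim43c and the pairs of neighbouring genes were named after their values were seen. The members and lists were chosen with earlier results of these data known. Precision is limited by 2 libraries in each group. Values of 1 gene are not reported here.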

Additional observations from a re-analysis of the deposited data

Results flagged for a closer look

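In 82 of the 150 genes the change with A-485 was more negative than that with TSA, by the interaction test of edgeR with at least a 2-fold difference, beside 11.0% of 26554 genes tested. The A-485 experiment's controls in this test were among the libraries that chose the genes. The other direction was called for 6 genes (4.0% of the members, near the 2.98% of all genes tested), and each difference below is the log2 fold change with A-485 minus that with TSA. It was 1.62 ± 0.22 (SE) for Ints2, 1.59 ± 0.22 for Pramel7 and 1.55 ± 0.19 for Ipo7. It was 1.36 ± 0.23 for Trim43c, 1.24 ± 0.32 for Glrx2 and 1.11 ± 0.19 for Ttc14. These genes were called because the effects of the treatments differed, and the treatments came from separate experiments with other doses and windows. Glrx2 had the largest adjusted p of the 6, at 0.011, and on FPKM its share left was alike under both treatments, 26.9% with A-485 and 26.2% with TSA.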

How the results depend on the processing

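The counts of members lower with TSA and lower with A-485 at late 2-cell stayed within 1.5 times under every alternative run. The alternatives for the zygote and early 2-cell comparisons, for the difference between treatments and for A-485 against the TSA experiment's DMSO, as well as leaving out members of uncertain count, were added after seeing the data. The median log2 fold change with TSA was -2.73 with all 16 libraries in one fit, -2.49 with members ranked by a pseudocount of 10, -2.90 without members of uncertain count, -2.88 scaled to mitochondrially encoded genes and -2.50 scaled to total counts, and leaving out 1 library gave -2.89 to -2.82. With A-485 at late 2-cell it was -4.32 with the TSA experiment's DMSO libraries, -3.87 with the pseudocount of 10, -4.83 by mitochondrial scaling and -3.998 by total counts, and -4.32 to -4.09 leaving out 1 library. For the rise under A-485 it was 1.29, 1.15 and 1.98 under these last 3 settings, and 1.45 to 1.86 leaving out 1 library. With mitochondrial scaling 43 members rose and 3 fell, with the pseudocount of 10 2 fell, and leaving out 1 library 0 to 2 fell. Scaling to mitochondrially encoded genes also left 3 members with the more negative change with TSA. Scaling to total counts called 1 member higher with TSA, and leaving out 1 library called 0 to 1 higher with TSA, 0 to 1 higher with A-485 against the TSA experiment's DMSO and 0 to 1 higher with A-485 at early 2-cell. No member was higher at early 2-cell or in the zygote by DESeq2 or without members of uncertain count, and with all 16 libraries 2 were higher and 4 lower in the zygote. With only the peaks above the median strength of each list, 37, 22, 16 and 21 members had a promoter peak in the early 2-cell A-485, early 2-cell DMSO, late 1-cell A-485 and late 1-cell DMSO lists. The order of the early 2-cell lists turned with that choice, to that of both other sets of genes. The cause was not tested.

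The direction turned for 1700013H16Rik with TSA (-0.28 to 0.71 leaving out 1 library, below 0 without DMSO replicate 1), for Gm13695 with TSA (-8.52 to 7.62 leaving out 1 library, with 7.62 without DMSO replicate 2 and 0.14 without TSA replicate 2) and for mt-Co2 in the rise under A-485 (-2.39 to 1.01 leaving out 1 library, with 0.0093 without late A-485 replicate 2 and 1.01 without early A-485 replicate 1).

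Replicate numbers did not pair the samples, as deviations of same-numbered libraries correlated at -0.035 to 0.098 over 12228 genes. With the replicate number as a block, 145 members were lower with TSA, 148 with A-485 at late 2-cell and 95 at early 2-cell, 68 rose under A-485, and 87 and 6 differed between treatments.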
